A study of Homo sapiens with 4 samples.

Results

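The 5 genes SERPINA6, AOC1, SLC2A5, CLDN18 and PCP4 are best known from liver, intestine, stomach and brain, and they were picked because their signal differed between knockdown and control arrays of a Hodgkin lymphoma cell line. All probe sets that the platform annotation gives to 1 of these genes alone were taken, which made 11 of 54613 probe sets. SERPINA6, AOC1 and PCP4 have 1 probe set each, and SLC2A5 and CLDN18 have 4 each. The choice used the difference between the groups, with no stated threshold, so the differences of these 5 genes are given as a description and were not tested. The cells are KM-H2, an established Hodgkin lymphoma line whose labels call them pleural effusion cells, and in which the gene of the class II transactivator CIITA is fused to the transcript BX648577. The knockdown group, 2 arrays, carried a lentiviral pGIPZ vector that expresses a single hairpin, sh.FLJ27352, aimed at exon 2 of BX648577. The control group, 2 arrays, is labelled as a non-silencing control, and transduced KM-H2 cells were used throughout. The labels do not say whether replicates were separate cultures, so the spread between them may be technical.

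SERPINA6 encodes corticosteroid-binding globulin, a plasma carrier of cortisol made by hepatocytes that belongs by sequence to the serpin protease inhibitors. AOC1 encodes diamine oxidase, a copper amine oxidase of gut and kidney that degrades histamine and putrescine. SLC2A5 encodes GLUT5, the fructose transporter of the enterocyte brush border, CLDN18 encodes a tight junction claudin with a lung and a stomach isoform that start at different first exons, and PCP4 encodes a small calmodulin-binding protein abundant in Purkinje cells.

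SERPINA6 and AOC1 stood higher on both knockdown arrays than on both control arrays, and the brightest probe sets of SLC2A5, CLDN18 and PCP4 stood lower on both. The linear ratio of group means, knockdown over control, was 2.27 for SERPINA6 and 2.46 for AOC1, and knockdown means were 50.9% of control for SLC2A5, 52.3% for CLDN18 and 30.7% for PCP4. The other probe sets of SLC2A5 and CLDN18 did not repeat the difference of the brightest one in size. The groups overlapped at all of these but 242525_at of SLC2A5, and the sign was opposite at 230705_at of SLC2A5 and 221133_s_at of CLDN18. Among 12922 genes, each represented by its brightest probe set, groups did not overlap for 22.7% in the higher and 24.5% in the lower direction, and since the 5 genes were chosen on this contrast nothing is read from their lack of overlap.

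The hairpin is shown because it is the reagent of the comparison, and the start regions of the genes are shown as background. Any part of the start regions in the differences was not tested. The hairpin of 97 bases folds on 2 complementary arms of 23 bases with 15 bases between them, as found from the letters of the label, and capitals mark the whole arm. The labels do not give the first base of the mature strand.
sense arm: GACAGCCACCTCACTATCAAATA
antisense arm: TATTTGATAGTGAGGTGGCTGTC

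Promoter windows, from 250 bases before to 50 bases after a gene's start, were taken from RefSeq (GRCh38.p14) for 4 of the 5 genes, SERPINA6, AOC1, SLC2A5 and, at 2 starts, CLDN18. No window was matched for PCP4. Capitals mark matches on either strand to TATAAA (the TATA box), CCAAT (bound by NF-Y), GGGCGG (the GC box bound by Sp1) and GTTAAT (part of the site of the liver factor HNF1). The motifs were chosen after the sequences had been seen. Of 35116 windows of the same length over all genes, 11.5% hold TATAAA, 34.6% CCAAT, 45.0% GGGCGG and 6.9% GTTAAT. The windows are at chr14:94323287-94323586 on the minus strand for SERPINA6, chr7:150852267-150852566 on the plus strand for AOC1, chr1:9069586-9069885 on the minus strand for SLC2A5, and chr3:137998566-137998865 and chr3:138009915-138010214 on the plus strand for CLDN18.
SERPINA6: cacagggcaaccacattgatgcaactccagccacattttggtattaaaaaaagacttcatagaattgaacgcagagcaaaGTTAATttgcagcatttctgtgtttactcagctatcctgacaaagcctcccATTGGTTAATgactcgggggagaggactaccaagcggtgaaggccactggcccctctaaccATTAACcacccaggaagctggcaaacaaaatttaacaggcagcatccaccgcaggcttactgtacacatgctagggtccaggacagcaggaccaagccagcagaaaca
AOC1: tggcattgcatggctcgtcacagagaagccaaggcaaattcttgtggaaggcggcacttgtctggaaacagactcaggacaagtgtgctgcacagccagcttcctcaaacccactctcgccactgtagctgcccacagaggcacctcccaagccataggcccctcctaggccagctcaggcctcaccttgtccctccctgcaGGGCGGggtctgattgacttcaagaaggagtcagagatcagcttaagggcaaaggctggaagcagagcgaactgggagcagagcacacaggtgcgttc
SLC2A5: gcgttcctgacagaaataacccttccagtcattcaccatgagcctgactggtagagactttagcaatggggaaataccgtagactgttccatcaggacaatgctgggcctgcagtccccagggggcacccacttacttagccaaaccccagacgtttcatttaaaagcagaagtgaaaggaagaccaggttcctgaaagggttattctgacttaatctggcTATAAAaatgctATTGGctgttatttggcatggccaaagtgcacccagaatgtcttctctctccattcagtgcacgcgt
CLDN18 first start: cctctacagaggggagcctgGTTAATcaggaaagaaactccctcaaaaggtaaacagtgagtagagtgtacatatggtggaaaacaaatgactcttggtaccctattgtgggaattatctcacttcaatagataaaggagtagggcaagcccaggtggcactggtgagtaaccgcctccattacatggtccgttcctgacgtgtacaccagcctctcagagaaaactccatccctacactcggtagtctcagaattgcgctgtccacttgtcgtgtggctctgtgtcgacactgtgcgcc
CLDN18 second start: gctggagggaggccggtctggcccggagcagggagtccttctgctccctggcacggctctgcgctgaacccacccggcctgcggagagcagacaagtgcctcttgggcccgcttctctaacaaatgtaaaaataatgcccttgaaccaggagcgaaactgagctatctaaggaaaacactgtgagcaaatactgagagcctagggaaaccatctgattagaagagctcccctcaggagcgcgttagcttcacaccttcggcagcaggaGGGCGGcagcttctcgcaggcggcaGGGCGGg

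Counted from the gene start, the SERPINA6 window holds GTTAAT at -170 and -115 on the gene's strand and at -58 on the other, and the CCAAT match at -119 on the other strand overlaps the second of them. The SLC2A5 window holds TATAAA at -29 and CCAAT on the other strand at -17. GGGCGG lies at -48 in the AOC1 window and at 19 and 44 in the window of the second CLDN18 start, and GTTAAT lies at -230 at the first. The windows hold 4 CG pairs for SERPINA6, 6 for AOC1, 5 for SLC2A5, and 8 and 15 for CLDN18, beside a median of 14 over all windows. A match in letters does not show that a factor binds there.

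Facts on the whole experiment are as follows. Values are probe set intensities on a linear scale, with array means from 53.3 to 54.6. Array medians were 8.37 and 8.12 in knockdown cells and 9.17 and 9.28 in control cells. First quartiles were 4.19 and 4.03 against 4.65 and 4.73, so the dim range stood lower on both knockdown arrays. PIERCE2, the current name of the targeted FLJ27352 by general knowledge, read 621 and 590 in knockdown cells and 880 and 947 in control cells, a log2 difference of -0.58. CIITA itself read 60.7 and 53.6 in knockdown cells and 59.6 and 65.1 in control cells, with overlapping groups and a log2 difference of -0.10. In limma's common-prior fit, which uses 1 prior variance for all genes, 0 genes were called higher and 2 of 12922 genes (0.0155%) lower, at a Benjamini-Hochberg adjusted p below 0.05, and an unadjusted p below 0.05 was reached by 6.41% in the higher and 7.68% in the lower direction. In its intensity-trend fit, where the prior follows mean intensity, 1.59% were called higher and 1.4% lower after the same adjustment. Its 206 higher and 181 lower calls became 157 and 190 with quantile normalization and 484 and 128 with each array centred on its median, so the balance of directions depends on the scaling. With every one-gene probe set fitted on its own, PIERCE2 was not called by the common-prior fit (limma adjusted p = 0.248). The intensity-trend fit called it lower (0.000194), as it did 0.906% of 22639 probe sets. The 10 marker genes of Hodgkin lines were all above the filter on dim probe sets, among them TNFRSF8 (CD30), at 134 and 115 in knockdown cells and 110 and 115 in control cells. Their median log2 difference was 0.09, and the brightest, CD83, gave 0.08. Of the 10, the intensity-trend fit called FUT4 higher (0.39, limma adjusted p = 0.0406) and FSCN1 lower (-0.32, 0.0162). The second probe set of each of these genes did not repeat the difference. All log2 differences are knockdown minus control of log2(intensity + 16), so that changes of dim sets look smaller than they are, and means are given ± SD over n = 2 arrays. In a bulk sample, fewer cells that express a gene and less RNA per cell cannot be told apart.

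SERPINA6 read 105 and 103 on the knockdown arrays and 51.6 and 39.9 on the control arrays. Both knockdown values lay far above both control values, and the controls differed more between themselves than the knockdowns did. The means were 104 ± 1.96 and 45.8 ± 8.28, a log2 difference of 0.96. This was place 2 among all rises of the 12922 genes. The replicates differed by 0.03 on the log2 scale in knockdown and by 0.27 in control, and over all genes 90% of control pairs differed by less than 0.36 and 90% of knockdown pairs by less than 0.31.

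AOC1 read 46.6 and 48.0 on the knockdown arrays and 21.5 and 16.9 on the control arrays. As for SERPINA6, the groups did not overlap and the second control was the lowest array. The means were 47.3 ± 1.04 and 19.2 ± 3.27, a log2 difference of 0.85 and place 6 among all rises. Its probe set is of the kind (suffix _s_at) whose probes can match more than 1 transcript.

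The brightest probe set of SLC2A5, 204430_s_at, read 25.9 and 26.2 in knockdown cells and 51.9 and 50.3 in control cells. The replicates of each group were close and the groups were well apart, with a log2 difference of -0.68 and place 29 among all falls. A second probe set designed for the gene, 204429_s_at, read 19.7 and 15.9 in knockdown cells and 19.7 and 21.2 in control cells. Here the groups overlapped and the log2 difference was -0.11. The probe set 242525_at read 7.05 and 13.3 in knockdown cells and 14.1 and 17.9 in control cells, without overlap and with a log2 difference of -0.30, but the knockdown replicates differed by 0.34 between themselves. The remaining one, 230705_at, lay below the filter at 8.60 and 4.15 in knockdown cells and 5.06 and 5.11 in control cells, and its log2 difference was 0.08. The lower signal of SLC2A5 was thus clear at 1 of its 4 probe sets.

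CLDN18 gave a signal at 1 of its 4 probe sets. That one, 214135_at, read 26.9 and 24.3 in knockdown cells and 50.9 and 47.0 in control cells, with no overlap, a log2 difference of -0.64 and place 45 among all falls. The sets 221132_at and 221133_s_at, both designed from RefSeq mRNA records of the gene, read at most 2.95 on any array. The set 232578_at read 3.74 and 2.19 in knockdown cells and 4.55 and 2.39 in control cells. These 3 sets lay near the floor of 1, below the filter at an intensity of 8.26, with overlapping groups and log2 differences from -0.04 to 0.06. The set 214135_at, like 232578_at, rests on a GenBank record other than a RefSeq mRNA, and which CLDN18 isoform either of them reads is not known here.

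PCP4 read 4.41 and 6.94 in knockdown cells and 18.3 and 18.8 in control cells. Both knockdown values lay below the filter's intensity of 8.26 and both control values above it, so PCP4 passed the filter only through the control arrays. The means were 5.68 ± 1.79 and 18.5 ± 0.36, a log2 difference of -0.67 and place 32 among all falls.

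Of the 11 probe sets, 7 passed the filter on their mean over the 4 arrays, 3 of SLC2A5 among them. At this brightness the choice of pseudocount sets the size of a log2 difference. With 1 in place of 16, it was 1.18 for SERPINA6, 1.27 for AOC1, -0.95 for SLC2A5, -0.91 for CLDN18 and -1.57 for PCP4. With the mean over all probe sets of a gene in place of the brightest, it was -0.25 for SLC2A5 and -0.16 for CLDN18.

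**Figure D1:**
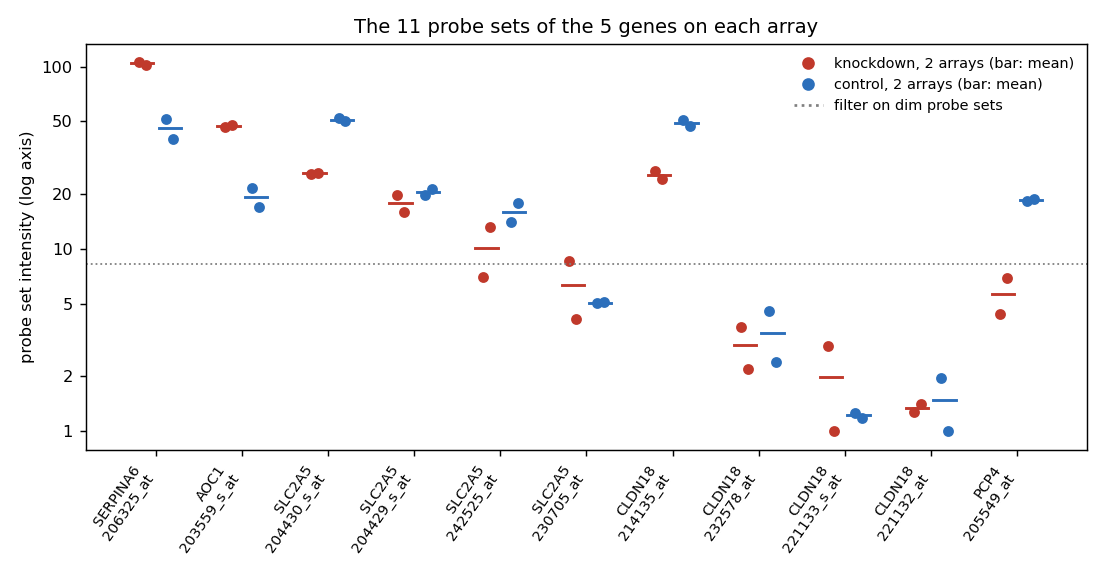
Intensity (log axis) of the 11 probe sets of SERPINA6, AOC1, SLC2A5, CLDN18 and PCP4 on the 2 knockdown and 2 control arrays, with bars at group means and a dotted line at the filter's intensity of 8.26. SERPINA6 and AOC1 are higher in knockdown, the first SLC2A5 and CLDN18 sets and PCP4 are lower, and 3 of the 4 CLDN18 sets lie near 1.

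**Figure D2:**
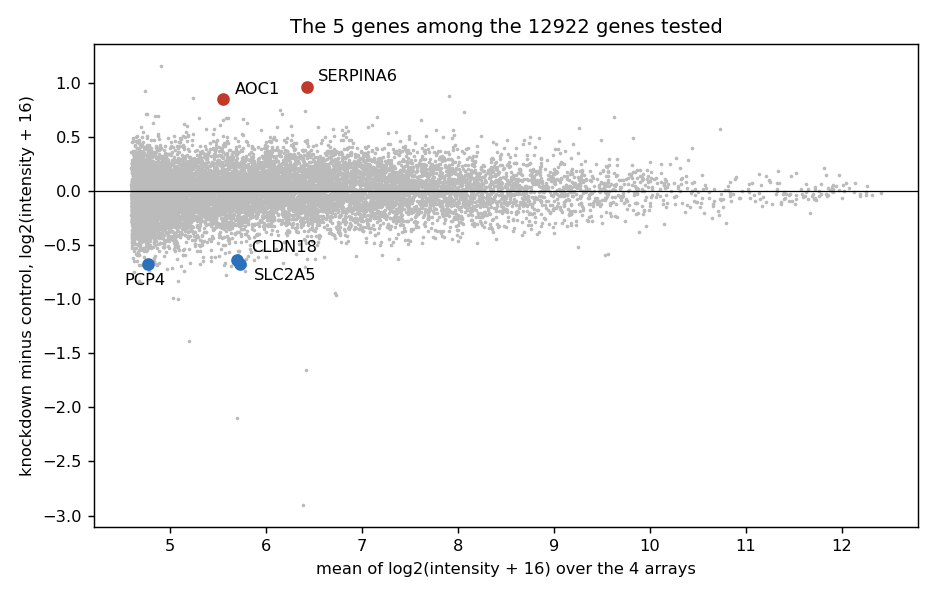
Difference between knockdown and control against the mean level, both on the log2(intensity + 16) scale, for the 12922 genes tested (grey) and the 5 genes (red where higher in knockdown, blue where lower). SERPINA6 and AOC1 lie at the upper edge, and SLC2A5, CLDN18 and PCP4 at the lower edge, of genes of like brightness. This follows from the choice of the 5 genes on this difference.

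The profiles over the 4 arrays fell into 2 sets, which the choice of genes fixes. As the Euclidean distance between log2 values, each gene centred on its own mean, SERPINA6 and AOC1 lay 0.14 apart. SLC2A5 and CLDN18 lay 0.09 apart, SLC2A5 and PCP4 0.12, and CLDN18 and PCP4 0.20. Distances between a higher and a lower gene were 1.497 to 1.657. Among all tested genes, AOC1 was nearest to SERPINA6, followed by CSGALNACT1, an enzyme of chondroitin sulfate synthesis, at 0.24 and CIMIP6 at 0.26. Nearest to AOC1 were CSGALNACT1 at 0.12, SERPINA6, and CYP4X1, a cytochrome P450, at 0.18. CYP4X1 read 33.8 and 34.3 in knockdown cells and 16.6 and 14.0 in control cells.

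SLC2A5 was most like the non-coding RNA LINC02525, at 0.04, then CLDN18, then CASP8AP2, which encodes a caspase-8 associated protein, at 0.11. CASP8AP2 was also nearest to CLDN18, at 0.08, followed by SEL1L3 at 0.08. It read 33.2 and 29.0 in knockdown cells and 56.6 and 57.7 in control cells. PCP4 was most like IGLC1, an immunoglobulin lambda constant gene, at 0.06, followed by the muscle caveolin gene CAV3 and by DHX9-AS1, each at 0.08. IGLC1 read 52.6 and 61.9 in knockdown cells and 94.1 and 101 in control cells, on sequence close to that of other lambda constant genes. With 12922 genes and 4 arrays, near neighbours of this kind are a description of these arrays.

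**Figure D3:**
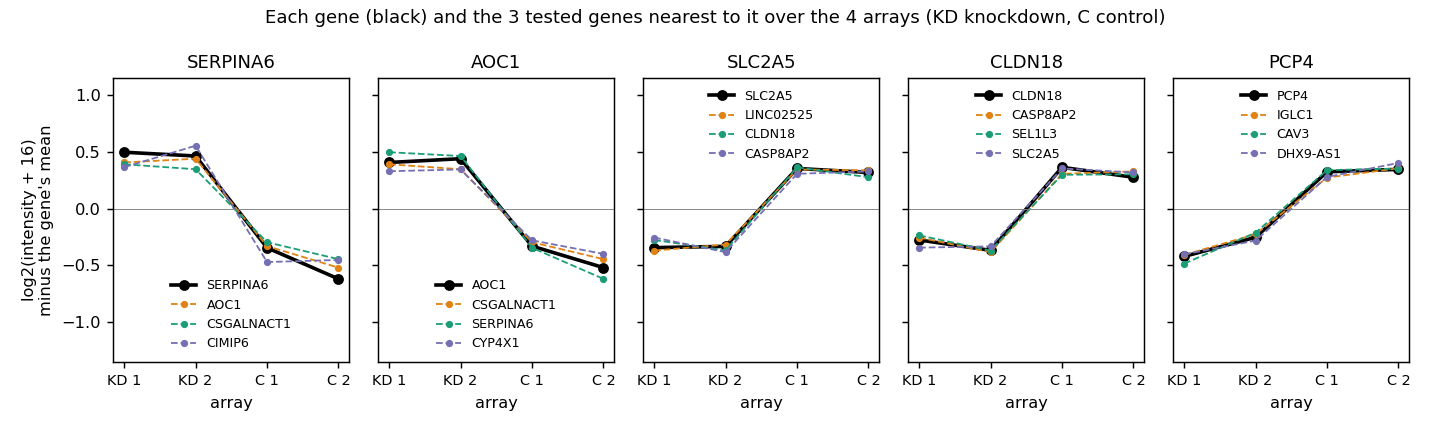
Log2(intensity + 16) minus the gene's own mean on the knockdown (KD 1, KD 2) and control (C 1, C 2) arrays for each of the 5 genes in black and its 3 nearest genes in colour. Lines run nearly on top of each other for SLC2A5, CLDN18 and PCP4, whose nearest genes lie within 0.11, and less closely for SERPINA6.

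Genes related to the 5, which had no part in the choice, were then read from the fit over all genes, each list without the 5 themselves. The lists were fixed with earlier results of these data known. Over all tested genes the median log2 difference was -0.01, with quartiles at -0.14 and 0.11. The counts of each list stand beside shares over all tested genes. An unadjusted p below 0.05 was reached by 6.41% higher and 7.68% lower, and the intensity-trend fit called 1.59% higher and 1.4% lower.

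The serpin A family held 9 other genes on the array, of which 3 passed the filter, with a median log2 difference of 0.01. None passed either limma fit, and 1 had an unadjusted p below 0.05. SERPINA1, which encodes alpha-1 antitrypsin and lies 2 genes from SERPINA6 on chromosome 14, read 242 and 221 in knockdown cells and 228 and 232 in control cells at its brightest probe set, 211429_s_at. The groups overlapped there, with a log2 difference of 0.01. Another SERPINA1 set, 202833_s_at, read 131 and 122 in knockdown cells and 70.3 and 81.8 in control cells. Every knockdown value lay above every control value, a log2 difference of 0.63 (SE 0.12). With every one-gene probe set fitted on its own, it was called higher by the intensity-trend fit (limma adjusted p = 0.00405), as were 1.43% of 22639 probe sets (0.906% were called lower). It did not pass the common-prior fit (adjusted p = 0.248), in which 0 sets were called higher and 0.00883% lower. The call remained without each array in turn, with adjusted p from 0.00284 to 0.0123. The dim sets 230318_at and 211428_at, below the filter, gave log2 differences of 0.21 and 0.13. The probe sets of SERPINA1 thus disagree, and at the level of the gene, by its brightest set, no difference was called (adjusted p = 0.982 and, in the intensity-trend fit, 0.980).

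Other neighbours of SERPINA6 showed no such rise. SERPINA2, the pseudogene between SERPINA6 and SERPINA1, read 19.3 and 20.8 in knockdown cells and 17.4 and 22.5 in control cells. On the other side, SERPINA10 was below the filter, and PPP4R4, a regulatory subunit of protein phosphatase 4, gave a log2 difference of -0.19 (limma adjusted p = 0.434). SERPINA4, which encodes kallistatin, read 5.81 and 5.46 in knockdown cells and 15.1 and 9.46 in control cells, a log2 difference of -0.38 (adjusted p = 0.300 in the intensity-trend fit).

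Glucocorticoid receptor genes and targets, the pathway of the hormone that corticosteroid-binding globulin carries, had 11 tested genes with a median log2 difference of -0.03, 5 above 0 and 6 below. Neither limma fit called any of them, and 0 had an unadjusted p below 0.05. The receptor gene NR3C1 read 183 and 186 in knockdown cells and 193 and 239 in control cells, a log2 difference of -0.20. Its other sets above the filter gave -0.34, -0.145 and, with overlapping groups, 0.15, and a set below the filter gave 0.05. FKBP5, a chaperone gene induced by glucocorticoids, read 198 and 203 in knockdown cells and 187 and 166 in control cells, a difference of 0.17. Its sets 224856_at and 204560_at gave 0.175 and 0.31, and neither limma fit called them. At 204560_at both control values, 7.52 and 6.70, lay below the filter's intensity. ZBTB16, another induced gene, gave -0.17. The brightest of the list, the metallothionein gene MT2A, gave 0.13.

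Amine oxidase, histamine and polyamine genes, the family and substrates of AOC1, had 18 tested genes with a median of -0.03, 7 above 0 and 11 below. Neither limma fit made a call here, and 1 gene had an unadjusted p below 0.05. Of the other copper amine oxidases, AOC3 read 21.1 and 20.8 in knockdown cells and 17.3 and 15.1 in control cells (log2 difference 0.20), and AOC2 gave 0.01. HNMT, which inactivates histamine inside cells, read 32.8 and 33.0 in knockdown cells and 32.5 and 33.7 in control cells. SAT1, the enzyme that acetylates polyamines, read 41.3 and 38.6 in knockdown cells and 49.4 and 53.6 in control cells (-0.27), but its set 203455_s_at overlapped between groups (-0.12) and its dimmer set 213988_s_at gave 0.17. The brightest gene of the list, OAZ1, which encodes an inhibitor of polyamine synthesis, gave 0.02. On chromosome 7, the gene next to AOC1 with a probe set, the potassium channel gene KCNH2, gave 0.01 (limma adjusted p = 0.968).

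The SLC2A family of sugar transporters had 7 other tested genes with a median of -0.02. None passed the common-prior fit, 1 had an unadjusted p below 0.05, and 1 was called higher by the intensity-trend fit. That gene, SLC2A6, a transporter of intracellular membranes, read 92.4 and 74.99 in knockdown cells and 54.3 and 58.1 in control cells. The groups did not overlap, and the log2 difference was 0.46 (limma adjusted p = 0.0373 in the intensity-trend fit, and 0.0138 with median centring). The call was lost without either control array (adjusted p = 0.106 and 0.0839), without knockdown replicate 1 (0.334) and with quantile normalization (0.0575). SLC2A1, the widespread glucose transporter GLUT1, read 22.5 and 28.1 in knockdown cells and 24.0 and 42.9 in control cells (-0.24), where the second control stood apart. SLC2A3, the transporter GLUT3, read 112 and 121 in knockdown cells and 121 and 154 in control cells (-0.20), and its dimmer sets gave 0.04 and 0.10.

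Genes of fructose metabolism, the pathway fed by GLUT5, had 8 tested genes with a median log2 difference of 0.11, 6 above 0 and 2 below. No call was made by either limma fit, and 1 gene had an unadjusted p below 0.05. TKFC, which phosphorylates the glyceraldehyde made from fructose, read 51.3 and 48.7 in knockdown cells and 39.0 and 39.3 in control cells, a log2 difference of 0.26. KHK, the fructokinase, read 36.3 and 41.7 in knockdown cells and 35.0 and 28.8 in control cells (0.20), and its dimmer set gave -0.09. HK2, a hexokinase, gave -0.23. The brightest, ALDOA, the aldolase of most tissues, gave 0.08. GPR157, the second gene beside SLC2A5 on chromosome 1, gave -0.17 with overlapping groups.

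Claudins had 8 other tested genes with a median of 0.01, 5 above 0 and 3 below. None passed either limma fit, and 2 had an unadjusted p below 0.05, beside 6.41% higher and 7.68% lower of all tested genes. CLDN20 read 5.37 and 6.52 in knockdown cells and 16.3 and 15.7 in control cells, a log2 difference of -0.54 (limma adjusted p = 0.0935 in the intensity-trend fit), and CLDN2, a claudin that forms cation pores, gave -0.25. Like PCP4, CLDN20 had control values above and knockdown values below the filter's intensity. A larger difference, in the other direction, was seen for CLDN9, which read 10.9 and 13.7 in knockdown cells and 1.85 and 2.28 in control cells (0.64), but whose mean lay below the filter, so that it was not tested. CLDN12 read 47.8 and 54.7 in knockdown cells and 55.7 and 38.9 in control cells, and CLDN15 gave 0.00.

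The other tight junction genes had 12 tested with a median of 0.00, 6 above 0 and 6 below. None passed either limma fit, and 4 had an unadjusted p below 0.05, beside 6.41% higher and 7.68% lower of all tested genes. PATJ, a scaffold protein of the Crumbs complex, read 51.5 and 46.6 in knockdown cells and 35.8 and 33.9 in control cells at its brightest set (0.36). Its set 223681_s_at read 42.6 and 43.5 in knockdown cells and 19.5 and 20.1 in control cells, a log2 difference of 0.72 (SE 0.10). Fitted on its own it was called higher by the intensity-trend fit (limma adjusted p = 0.00772) and not by the common-prior fit (0.244), and the call was lost without knockdown replicate 2 (0.0558). Of the 6 PATJ probe sets, 5 had differences above 0. OCLN, which encodes occludin, read 11.4 and 5.70 in knockdown cells and 18.3 and 14.0 in control cells (-0.40). Its set 231022_at, also above the filter, overlapped between groups (0.02), and its sets below the filter gave -0.11 and 0.03. MARVELD2, which encodes tricellulin and was the brightest of the list, gave -0.02. LINC01210, a non-coding RNA 2 genes from CLDN18 on chromosome 3, gave -0.39 (limma adjusted p = 0.224 in the intensity-trend fit).

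**Figure D4:**
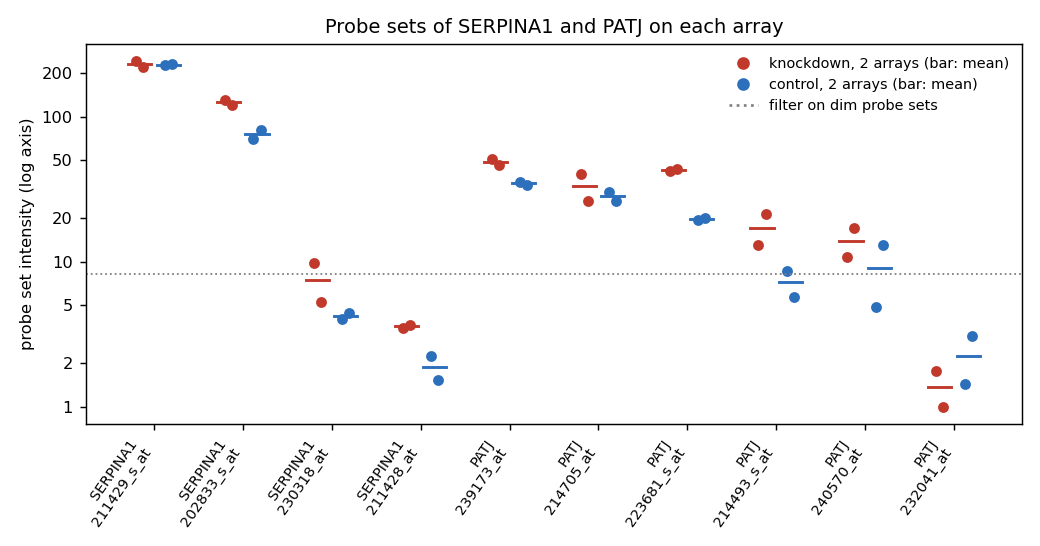
Intensity (log axis) of the probe sets of SERPINA1, 2 genes from SERPINA6, and of the tight junction gene PATJ on the 2 knockdown and 2 control arrays, with bars at group means and a dotted line at the filter's intensity of 8.26. The brightest SERPINA1 set shows no separation while 202833_s_at does, and 5 of 6 PATJ sets have a higher knockdown mean.

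Calmodulin and its binding partners, the group of PCP4, had 10 tested genes with a median of 0.01. None passed either limma fit, and 0 had an unadjusted p below 0.05. GAP43, a neuronal protein that binds calmodulin through an IQ motif as PCP4 does, read 5.83 and 9.49 in knockdown cells and 16.2 and 10.4 in control cells (-0.31). The relative PCP4L1 lay below the filter, at 4.80 and 5.43 in knockdown cells and 8.29 and 6.78 in control cells. CAMK1D, a calmodulin-dependent kinase, read 134 and 122 in knockdown cells and 145 and 165 in control cells (-0.25), and PPP3CB, a calcineurin subunit and the brightest gene of the list, gave 0.07. DSCAM, which lies next to PCP4 on chromosome 21, gave -0.03, and IGSF5, 2 genes away on the other side, read at most 2.49 on any array.

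Genes typical of the same tissues as the 5 were mostly dim in this line. For liver, 13 of 27 other genes on the array passed the filter, with a median log2 difference of -0.05. The summed intensity of all 27 was 463 and 451 in knockdown cells and 495 and 472 in control cells, SERPINA1 included. TAT, a liver aminotransferase, gave -0.33 and CYP2E1, a liver P450, -0.32, and the CYP2E1 sets disagreed in sign, with 0.38 at 209976_s_at, below the filter. ALB, the albumin gene, read 12.4 and 17.0 in knockdown cells and 14.5 and 11.1 in control cells. For intestine, 7 of 23 genes passed, with a median of 0.00. The summed intensity of all 23 was 195 on each knockdown array and 215 and 212 on the control arrays. LCT, which encodes lactase, gave -0.38, and CEACAM5, a surface antigen of gut epithelium, 0.18. MTTP, which loads lipoproteins and was the brightest of the list, read 49.1 and 50.8 in knockdown cells and 54.2 and 34.6 in control cells.

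For stomach, 9 of 20 genes passed, with a median of -0.12, 2 above 0 and 7 below, and 4 of the 9 were lower without overlap beside 24.5% of all genes. None of the 20 read above 50 on any array, and the summed intensity was 166 and 164 in knockdown cells and 174 and 191 in control cells. PGC, which encodes progastricsin, gave -0.30, and the gastric mucin gene MUC5AC gave -0.26, and the brightest of the list, CTSE (cathepsin E), gave -0.11. For brain, 10 of 21 genes passed, with a median of -0.06. MAP2, a dendritic microtubule protein, gave -0.43 at 1 probe set and 0.00 at the other. NEFL, the neurofilament light chain, gave -0.42 at its brightest set, -0.21 at 221801_x_at and 0.03 at a set below the filter. TUBB3, a neuronal tubulin and the brightest of the list, gave 0.10. None of the liver, intestine, stomach or brain genes passed either limma fit. At an unadjusted p below 0.05 there were 1, 1, 0 and 2 of them, beside 6.41% higher and 7.68% lower of all tested genes.

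**Figure D5:**
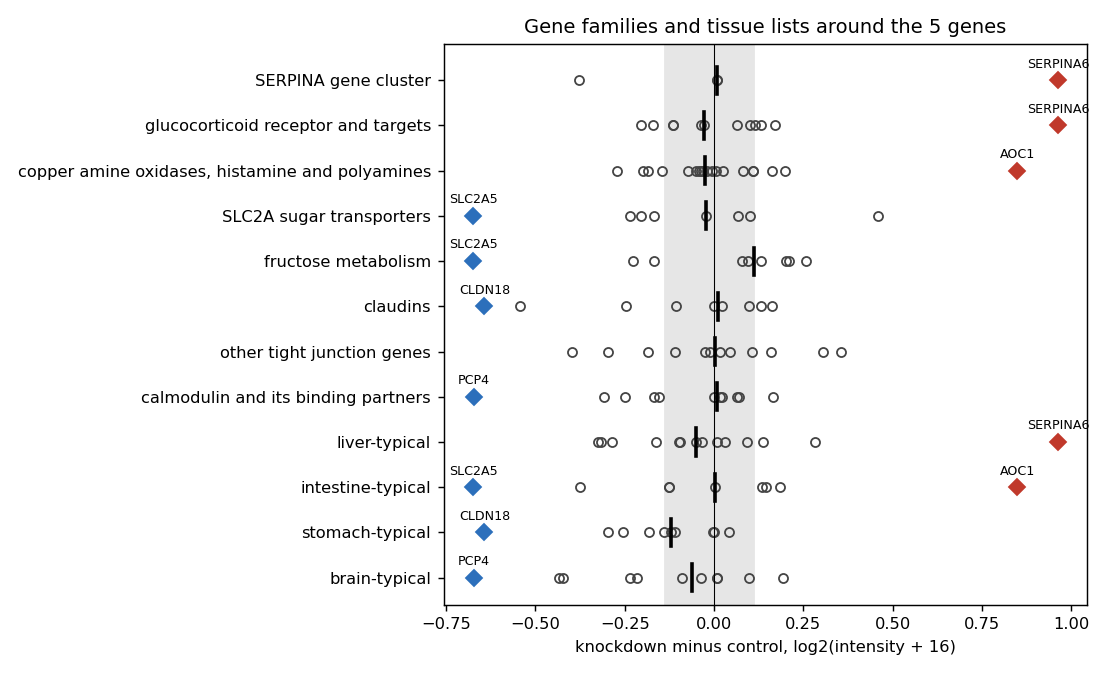
Difference between knockdown and control on the log2(intensity + 16) scale for the tested genes of each family or tissue list (open circles), the list's median without the 5 genes (black bar), and the 5 genes (red diamonds where higher, blue where lower). Most circles lie within or near the grey band, which spans the quartiles of all tested genes from -0.14 to 0.11. The diamonds lie at 0.85 or above and at -0.64 or below, which follows from the choice of the 5 genes on this difference.

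Markers of cells other than Hodgkin lymphoma cells were read beside these values. Of 9 epithelial markers on the array 2 passed the filter, ELF3 (log2 difference -0.09) and KRT8 (0.12), with 0 genes called by either limma fit (0 at an unadjusted p below 0.05). The summed intensity of the 9 was 62.6 and 48.1 in knockdown cells and 66.2 and 71.4 in control cells, and EPCAM, CDH1 and KRT19 were below the filter. Of 12 markers of T, NK and myeloid cells 3 passed. The sums over all 12 were 413 and 379 in knockdown cells and 335 and 331 in control cells. CD3D made up most of these sums, at 253 and 225 in knockdown cells and 194 and 183 in control cells, whereas CD3E, CD3G and CD2 lay below the filter. The log2 difference of CD3D was 0.32 (limma adjusted p = 0.0499 in the intensity-trend fit, 0.0625 with quantile normalization and 0.0152 with median centring). The median of the 3 was 0.07, and CD14, a monocyte marker, gave -0.14 with overlapping groups. Leaving out any array took CD3D above the threshold, with adjusted p from 0.0645 to 0.345.

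Of 9 fibroblast and mesothelial markers 6 passed. The sums over all 9 were 134 and 131 in knockdown cells and 166 and 197 in control cells. The median log2 difference of the 6 was -0.20, with 5 of the 6 below 0 and 4 lower without overlap, beside 24.5% of all genes. COL1A2, a type I collagen chain, read 37.3 and 32.9 in knockdown cells and 56.4 and 53.3 in control cells (-0.47, adjusted p = 0.0405 in the intensity-trend fit, above the threshold without any one array, at 0.0631 to 0.320, and with median centring, at 0.0532). Another COL1A2 set above the filter gave 0.00. LUM, which encodes the matrix proteoglycan lumican, gave -0.31 and COL1A1, the other type I collagen chain, -0.24. The intensity table holds no 0, and values near the floor of 1 have no order. The part of these markers in the differences of the 5 genes was not tested.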

How the data were processed

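RNA of 4 arrays was labelled by the 1-cycle Affymetrix method, per the labels' protocols. The deposited values are probe set intensities on a linear scale, and the sources used here do not say how the authors obtained them. The platform annotation gave 1 gene to 41091 of 54613 probe sets, several to 1801 and none to 11721, and names were used for sets with 1 gene alone (41037 matched RefSeq by gene number). Intensities were turned into log2(intensity + 16) with no further scaling. Each of 19775 genes was represented by its brightest probe set. Genes whose mean fell under the median of all probe sets, 4.60 on the log2 scale, were left out, leaving 12922. Groups were compared with limma 3.58.1 in R 4.3.3 (lmFit and eBayes, 1 prior variance, Benjamini-Hochberg adjustment, threshold 0.05), and again with a prior that follows intensity. The scripts were tested on simulated data. The 5 genes and the lists were chosen with earlier results of these data known.

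Genes named beside the 5 are the targeted PIERCE2, CIITA, the 2 tested genes of each list with the largest difference, the brightest and any called gene of a list, the 2 neighbours on either side by gene start, and the 3 nearest profiles. Other genes and probe sets, such as 202833_s_at and 223681_s_at, CLDN12, ALB and HNMT, were picked after their values were seen. The number of arrays limits the precision. Alternatives covered the prior, filter, scaling, pseudocount, gene summary, threshold, replicate block and leaving out arrays.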

Additional observations from a re-analysis of the deposited data

How the results depend on the processing

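The differences of the 5 genes, each by its brightest probe set or the mean of its sets, kept their sign under the alternatives run on them. Single dim sets turned it, with 0.08 at 230705_at of SLC2A5 and 0.06 at 221133_s_at of CLDN18. The groups did not overlap at the brightest sets, so leaving out an array or changing the prior, filter, pseudocount or threshold could not turn the sign there. The 5 genes were chosen on these differences, so nothing is read from their kept signs. With a pseudocount of 1 they were 1.18 for SERPINA6, 1.27 for AOC1, -0.95 for SLC2A5, -0.91 for CLDN18 and -1.57 for PCP4, and with 64 they were 0.62, 0.42, -0.36, -0.33 and -0.24, since a larger pseudocount shrinks dim values more. Averaging probe sets gave -0.25 for SLC2A5 and -0.16 for CLDN18, as it brings in sets that differed less, and median centring gave -0.62 for SLC2A5. Without 1 array at a time, SERPINA6 lay between 0.83 and 1.10, AOC1 between 0.76 and 0.94, SLC2A5 between -0.69 and -0.66, CLDN18 between -0.69 and -0.60 and PCP4 between -0.76 and -0.59. The common-prior fit called 2 genes, 1 to 6 without 1 array at a time (6 without knockdown replicate 1 and 1 without control replicate 2), 18 with a filter at the 75th percentile, 0 with a pseudocount of 1, 406 with 64 and 1 with averaged probe sets. The intensity-trend fit called 387, and 260 without control replicate 1, 143 without control replicate 2, 377 without knockdown replicate 1 and 142 without knockdown replicate 2, 347 with quantile normalization and 612 with median centring. These alternatives of the intensity-trend fit, and its replicate block, were added after seeing the data. The cause of these shifts in counts was not tested. Blocking on replicate number left the common-prior fit at 2 calls and the differences of the 5 genes were the same, for example 0.96 for SERPINA6, while the intensity-trend fit called 1010 genes. Over all genes, replicates of the same number did not deviate together (r = -0.01). That value cannot exclude a pairing that affects part of the genes, and the labels give only the replicate number. Over 16 lists, the median difference lay between -0.29 and 0.22 when arrays were left out, between -0.18 and 0.13 with quantile normalization and between -0.14 and 0.17 with median centring. The medians that kept 1 sign were those of fructose metabolism (0.08 to 0.17), Hodgkin markers (0.04 to 0.15), T, NK and myeloid markers (0.003 to 0.14), the stomach list (-0.17 to -0.03) and fibroblast and mesothelial markers (-0.29 to -0.08). These ranges also cover the intensity-trend prior, the replicate block and no filter on dim probe sets. They leave out other pseudocounts, the filter at the 75th percentile and averaged probe sets. In the intensity-trend fit the lists held 1 called SLC2A gene, 1 T, NK and myeloid marker, 1 fibroblast marker and 2 Hodgkin markers, FSCN1 (log2 difference -0.32) and FUT4 (0.39). Another FSCN1 set above the filter, 210933_s_at, went the other way (0.345), and the second FUT4 set overlapped between groups (0.105). The call of FSCN1 was lost without control replicate 1 or knockdown replicate 2, and that of FUT4 without any 1 array and with quantile normalization. With median centring the calls of FSCN1 and FUT4 held (limma adjusted p = 0.0279 and 0.0152 in the intensity-trend fit). Signal close to the floor limits what can be said of PCP4 and of 3 CLDN18 probe sets.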
